A study of Homo sapiens with 6 samples.

Results

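The array of HM20 cells labelled SFRP1 was set against the array of HM20 cells labelled Mock, which are 2 of the 6 arrays of the series, and 11954 of 18365 measured genes passed the filter on dim probes. The SFRP1 cells belong to the stable clones that the labels describe as expressing SFRP1 to SFRP5. The Mock cells are the control population of the same HM20 background, and no source used here names their vector. HM20 is listed under the cell line A549, an established human lung adenocarcinoma line of alveolar epithelial origin, and no label explains how HM20 differs from it. Both populations were kept for 24 hours in medium containing Wnt3a, so the ligand is shared by both arrays and no array without it was used. The study concerns SFRPs as modulators of Wnt-driven stem cell properties of cancer cells, and the pair asks what distinguishes the SFRP1 clone under Wnt3a. Each population is 1 stable line measured on 1 array, so properties of the line and of SFRP1 itself cannot be told apart, and no difference has a replicate check. Precision is set by having a single array per population.

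Wnt proteins are secreted lipid-modified ligands that bind Frizzled receptors and the co-receptors LRP5 and LRP6. In the canonical branch this stabilises beta-catenin, which enters the nucleus and switches on target genes with TCF and LEF factors. Secreted Frizzled-related proteins carry a cysteine-rich domain like that of Frizzled and bind Wnt ligands outside the cell, where SFRP1 is best known as an antagonist. Its gene is often silenced by promoter methylation in carcinomas, those of the lung included.

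Values are scaled probe intensities as deposited. Differences are SFRP1 minus Mock on the log2(intensity + 1) scale, so 1 unit is a 2-fold difference and a positive value means higher in SFRP1. In the bulk RNA of a cell population, fewer cells that express a gene and less RNA per cell cannot be told apart.

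The gene named by the label was examined first. The SFRP1 probe read 88063 in SFRP1, 72334, 110461, 37206 and 63703 in the clones SFRP2 to SFRP5, and 58836 in Mock. The SFRP1 clone thus lay above Mock by 0.58, under 2-fold, and below the clone labelled SFRP3. The position of the probe is not known here, and a probe outside an expressed insert does not check a label, so SFRP1 below means the array with that label. FRZB, the gene of SFRP3, read 512 in SFRP1 and 476 in Mock, a difference of 0.11. The probes of SFRP2, SFRP4 and SFRP5 did not pass the filter, at 71.5 to 98.9 in SFRP1 and 67.7 to 72.4 in Mock, close to or under the 10th percentile of probe values, which was 91.0 in SFRP1 and 69.5 in Mock.

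The cell type on the label was checked with 10 epithelial markers, of which 9 were on the array. EPCAM, the epithelial adhesion molecule, read 248.7 in SFRP1 and 340.2 in Mock, below the table median of 641.8 on both arrays. CDH1 (E-cadherin) read 385 in SFRP1 and 1306 in Mock, and KRT8, a simple epithelial keratin, 462 in SFRP1 and 891 in Mock, so in SFRP1 both were under the table median and in Mock both were above it. KRT19, with the widest gap of the 9, read 260.4 in SFRP1 and 2634 in Mock. KRT7, CLDN7 and ESRP1 lay below Mock too, at 299, 202 and 215 in SFRP1 against 874, 314 and 264 in Mock. Only the claudins CLDN3 and CLDN4 were above Mock, at 1615 and 1323 in SFRP1 against 1214 and 1020.6 in Mock. The summed level of the 9 markers was 5009 in SFRP1, 5374 to 9617 in the 4 other clones and 8858 in Mock, and none was under the 10th percentile of either array. Of the markers of other cell types, the 10 of fibroblasts summed to 3856 in SFRP1 and 5363 in Mock. That gap was carried by CD248 (endosialin), at 165 in SFRP1 and 1759 in Mock, which was below Mock in every other clone too. PDGFRA and PDGFRB also lay below Mock, while COL1A1, COL1A2, COL3A1, DCN, LUM, THY1 and FAP lay above it. The 10 markers of blood cells summed to 10633 in SFRP1 and 9932 in Mock. Within that sum LAPTM5 and NKG7 went in opposite directions. LAPTM5 read 183 in SFRP1 and 801 in Mock, and NKG7 616 in SFRP1 and 250 in Mock. The 10 endothelial markers summed to 5083 in SFRP1, 4751 to 7356 in the 4 other clones and 22888 in Mock. The endothelial sum was carried by ESAM, an endothelial adhesion molecule, at 1931 in SFRP1 and 12624 in Mock, by PECAM1 (CD31) at 674 in SFRP1 and 4134 in Mock and by CLDN5, a tight junction claudin, at 299.6 in SFRP1 and 3773 in Mock. VWF, the von Willebrand factor, read 595 in SFRP1 and 608 in Mock. CDH5 (VE-cadherin), the VEGF receptor KDR and EMCN (endomucin) lay above Mock, at 489, 246 and 319 in SFRP1 against 357, 203 and 260.3 in Mock. Under the 10th percentile of the array lay 1 fibroblast, 1 endothelial and 2 blood markers in SFRP1, and 1 fibroblast, 0 endothelial and 2 blood markers in Mock. The part of other cell types in the results below was not tested.

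The widest gaps outside probes at the floor were all lower in SFRP1: osteopontin, the secretory protein AGR2, TIMP3, the cortisol enzyme HSD11B1, the homeobox factor IRX5 and the GTPase RAC2. In all, 527 genes were at least 2-fold higher in SFRP1, which is 4.41% of the 11954, and 518 were at least 2-fold lower, which is 4.33%, so 8.74% differed in either direction. Counts in the gene lists below are to be read beside these shares. The median difference over all kept genes was 0.05. Centring each array on its median moves that to -0.07, and the counts to 398 higher and 699 lower, so the near-even split is a property of the deposited scaling. SFRP1 and Mock correlated at r = 0.978 over all probes (probes are not independent replicates).

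SPP1 (osteopontin, a secreted phosphoprotein that binds integrins) read 797 in SFRP1, 39071, 70113, 29644 and 628 in the clones SFRP2 to SFRP5, and 120483 in Mock. SFRP1 lay 151-fold below Mock (-7.24), and SFRP5 was the only other clone near its level. AGR2, an endoplasmic reticulum disulfide isomerase of mucus-secreting cells, read 184 in SFRP1, 40.6, 615, 1137 and 156 in the clones SFRP2 to SFRP5, and 9089 in Mock. It differed by -5.62, and all 5 clones lay below Mock. TIMP3, a matrix-bound inhibitor of metalloproteinases, read 349 in SFRP1, 1191, 2271, 171 and 33892 in the clones SFRP2 to SFRP5, and 13336 in Mock, a difference of -5.25, while SFRP5 lay above Mock. HSD11B1, which regenerates cortisol from cortisone, read 136 in SFRP1 against 4249.7 in Mock (-4.95), with 137 to 1280 in the 4 other clones. IRX5, an Iroquois homeobox factor, read 1053 in SFRP1 against 28165 in Mock (-4.74), with 1524 to 3458 in the 4 other clones. RAC2, a small GTPase known from blood cells, read 338 in SFRP1 against 6914 in Mock (-4.35), with 111 to 1810 in the 4 other clones. For all 6 genes the SFRP1 value lay above the 10th percentile of its array, so none of these differences rests on the lowest readings.

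Among the higher genes, IL24, a cytokine of the IL10 family, read 1301 in SFRP1 against 75.2 in Mock, a difference of 4.10. Its Mock reading was close to the 10th percentile. IL24 lay above Mock in the other clones too, by 7.20, 6.84, 2.40 and 4.43 (SFRP2 to SFRP5), and SFRP2 and SFRP3 were above SFRP1. APCDD1L, related to the Wnt inhibitor APCDD1, read 13374 in SFRP1 against 944 in Mock (3.82), and the other clones differed from Mock by 2.47, 2.65, 1.09 and 1.85 (SFRP2 to SFRP5). FBN2 (fibrillin 2, a microfibril protein of elastic fibres) read 2702 in SFRP1 against 211 in Mock (3.67). RND3, an atypical GTPase that opposes actin stress fibres, read 3582 in SFRP1 against 323 in Mock, and BASP1, a membrane-bound protein of growth cones, read 96891 in SFRP1 against 9622 in Mock. They differed by 3.47 and 3.33, and a further BASP1 probe by 3.22. RND3 lay above Mock in the other clones too, by 2.55, 2.99, 2.99 and 2.90 (SFRP2 to SFRP5). MARCKS, a membrane substrate of protein kinase C that binds actin, read 42580.2 in SFRP1 against 5009.9 in Mock. Its difference was 3.09 on that probe and 1.72 on the next. TMEM200A, a transmembrane protein, differed by 3.65 on its brightest probe and by 2.84 on the next. GPC3, a heparan sulfate proteoglycan anchored in the membrane, read 3325 in SFRP1 against 378 in Mock (3.13), and TNFRSF21 (death receptor 6) read 6633 in SFRP1 against 816 in Mock (3.02). Both were higher still in SFRP4, by 4.31 and 5.19 from Mock.

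**Figure D1:**
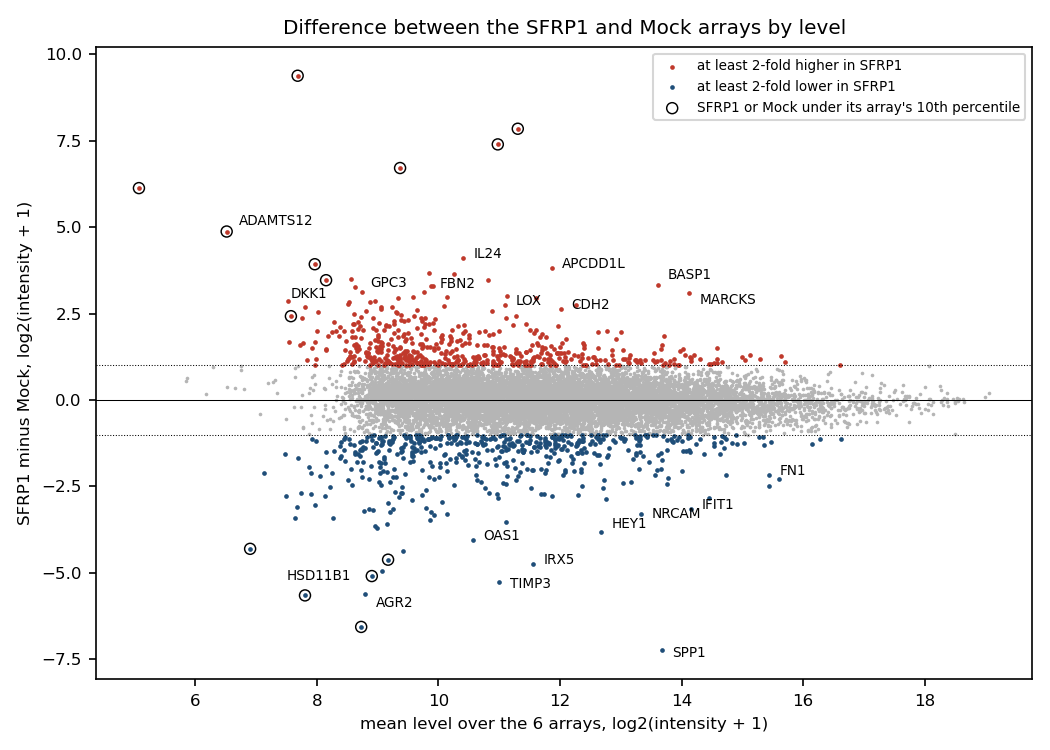
Each point is one of the 11954 kept genes, with its mean level over the 6 arrays in log2(intensity + 1) on the horizontal axis and SFRP1 minus Mock in log2 units on the vertical axis. Red points are the 527 genes at least 2-fold higher in SFRP1, blue points the 518 at least 2-fold lower, and open circles mark 2-fold genes with SFRP1 or Mock under the 10th percentile of its array; the named genes include SPP1 at -7.24 and IL24 at 4.10.

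Large differences were more frequent among dim genes. In the dimmest quintile by mean level 9.91% of genes were at least 2-fold higher in SFRP1 and 7.28% at least 2-fold lower, and in the brightest quintile 1.67% were higher and 2.43% lower. The median difference ran from 0.15 in the dimmest quintile through 0.10, 0.03 and 0.01 to -0.06 in the brightest. A further bright probe existed for 213 of the 2-fold genes. It pointed the same way for 198 (93.0%) and was itself at least 2-fold away in that direction for 108 (50.7%). Over all 2910 genes with such a probe the difference between the probes of a gene had a median size of 0.26 and a 90th percentile of 0.82.

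Genes induced by interferon were lower in SFRP1 than in Mock. Interferons signal through JAK kinases to a complex with STAT2 and IRF9, which binds an element of paired GAAA repeats, the interferon-stimulated response element, in the promoters of antiviral genes. Of the 46 listed genes 45 were on the array and 37 passed the filter. Of the 37, 18 (48.6%) were at least 2-fold lower, against 4.33% of all genes, and 0 were at least 2-fold higher. The median difference was -0.92, against 0.05 over all genes, and lay between -1.04 and -0.89 under the other settings tried. Below 0 were 35 of the 37.

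Promoter sequences are shown for 4 of the lower interferon genes, to set the element beside the values. They are the 250 bases before the gene's start from RefSeq (GRCh38.p14, plus strand), with capitals at matches, on either strand, to a pair of GAAA repeats. The first motif has 2 bases of any kind between the repeats, the spacing of the interferon-stimulated response element, and the second is GAAANGAAA, with 1 base between them. A match on the minus strand reads as paired TTTC. The regions are chr10:89392373-89392622 for IFIT1, chr10:89327747-89327996 for IFIT3, chr12:112906712-112906961 for OAS1 and chr2:6865635-6865884 for RSAD2.
IFIT1: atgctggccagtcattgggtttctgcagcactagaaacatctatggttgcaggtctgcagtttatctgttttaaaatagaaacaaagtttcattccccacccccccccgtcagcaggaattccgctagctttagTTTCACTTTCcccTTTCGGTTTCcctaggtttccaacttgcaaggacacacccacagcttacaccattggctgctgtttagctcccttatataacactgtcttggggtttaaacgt
IFIT3: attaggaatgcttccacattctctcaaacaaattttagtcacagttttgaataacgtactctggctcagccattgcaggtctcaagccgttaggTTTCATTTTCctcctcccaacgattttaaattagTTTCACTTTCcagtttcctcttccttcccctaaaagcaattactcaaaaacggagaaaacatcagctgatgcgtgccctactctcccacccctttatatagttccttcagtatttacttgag
OAS1: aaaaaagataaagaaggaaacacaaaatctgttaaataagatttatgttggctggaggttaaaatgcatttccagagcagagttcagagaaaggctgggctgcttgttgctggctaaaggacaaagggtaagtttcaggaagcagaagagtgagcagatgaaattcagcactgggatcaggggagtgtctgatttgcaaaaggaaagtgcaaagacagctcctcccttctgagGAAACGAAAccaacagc
RSAD2: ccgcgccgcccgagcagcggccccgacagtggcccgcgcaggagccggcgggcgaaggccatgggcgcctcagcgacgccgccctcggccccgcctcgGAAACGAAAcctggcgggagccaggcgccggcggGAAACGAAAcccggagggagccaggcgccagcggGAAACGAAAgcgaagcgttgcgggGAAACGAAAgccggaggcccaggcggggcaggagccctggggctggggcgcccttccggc
The IFIT1 and IFIT3 windows hold 2 matches each of the first motif, and the OAS1 and RSAD2 windows 1 and 4 of the second. Among 27305 RefSeq promoter windows of this length 3.07% hold the first motif, 2.76% the second and 5.61% either. Of the kept genes 9815 had a window, and 414 of these held either motif, with a median difference of 0.01. Of the 414, 34 (8.21%) were at least 2-fold lower in SFRP1 and 19 (4.59%) higher, against 4.33% and 4.41% of all kept genes. Among 30 interferon genes with a window 23 held either motif, and 13 of those 23 were at least 2-fold lower. The listed interferon genes thus made up 13 of the 34. The motifs were chosen with the values known, and a match describes the letters only.

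The antiviral effectors had the widest gaps. OAS1, which makes the 2-5A signal that activates RNase L, read 337 in SFRP1, 7779, 444, 238 and 7909 in the clones SFRP2 to SFRP5, and 5584 in Mock. SFRP1, SFRP3 and SFRP4 were low and SFRP2, SFRP5 and Mock high, and SFRP1 differed from Mock by -4.05, and by -2.71 on a further probe. IFIT1, a binder of foreign RNA caps, read 6818 in SFRP1, 35912, 3099, 73762 and 10974 in the clones SFRP2 to SFRP5, and 61013 in Mock. The difference of SFRP1 was -3.16, and -3.01 on a further probe, with SFRP3 lower still and SFRP4 above Mock. RSAD2 (viperin, an antiviral enzyme) read 349 in SFRP1, 9416, 169.6, 159 and 1758 in the clones SFRP2 to SFRP5, and 2327 in Mock, a difference of -2.74. IFIT2 and IFIT3, relatives of IFIT1, differed by -2.43 and -2.40, OASL by -2.49 and the antiviral GTPase MX1 by -2.17. OAS3, a further 2-5A synthetase, read 6132 in SFRP1 and 20271 in Mock (-1.72).

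Further members of the list were named after their values were seen. The RNA sensor DDX58 (RIG-I) read 1459.6 in SFRP1 and 5945 in Mock, a difference of -2.03, and -1.40 on its next probe. The related sensor IFIH1 (MDA5) read 805 in SFRP1 and 2643 in Mock (-1.71). PLSCR1, a phospholipid scramblase, differed by -2.06, although only by -0.49 on its next probe, and PARP14, an ADP-ribosyltransferase, read 2026 in SFRP1 and 8126 in Mock. TMEM173 (STING), the adaptor of DNA sensing, stood outside the interferon list and read 1998 in SFRP1 and 7003 in Mock (-1.81).

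The factors that transmit the interferon signal lay closer to Mock. IRF9 read 15359 in SFRP1 and 27936 in Mock (-0.86), IRF7 3449.9 in SFRP1 and 6068 in Mock (-0.81) and STAT2 3248 in SFRP1 and 4041 in Mock (-0.31). ISG15, a ubiquitin-like modifier and one of the most abundant interferon products, read 18946 in SFRP1 and 27083 in Mock (-0.52), and IFITM3, which blocks viral entry, 7095 in SFRP1 and 9993 in Mock (-0.49). None of these 5 reached 2-fold. The 2 list members above 0 were IFI27 at 0.49 and IFI44L at 0.29.

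**Figure D2:**
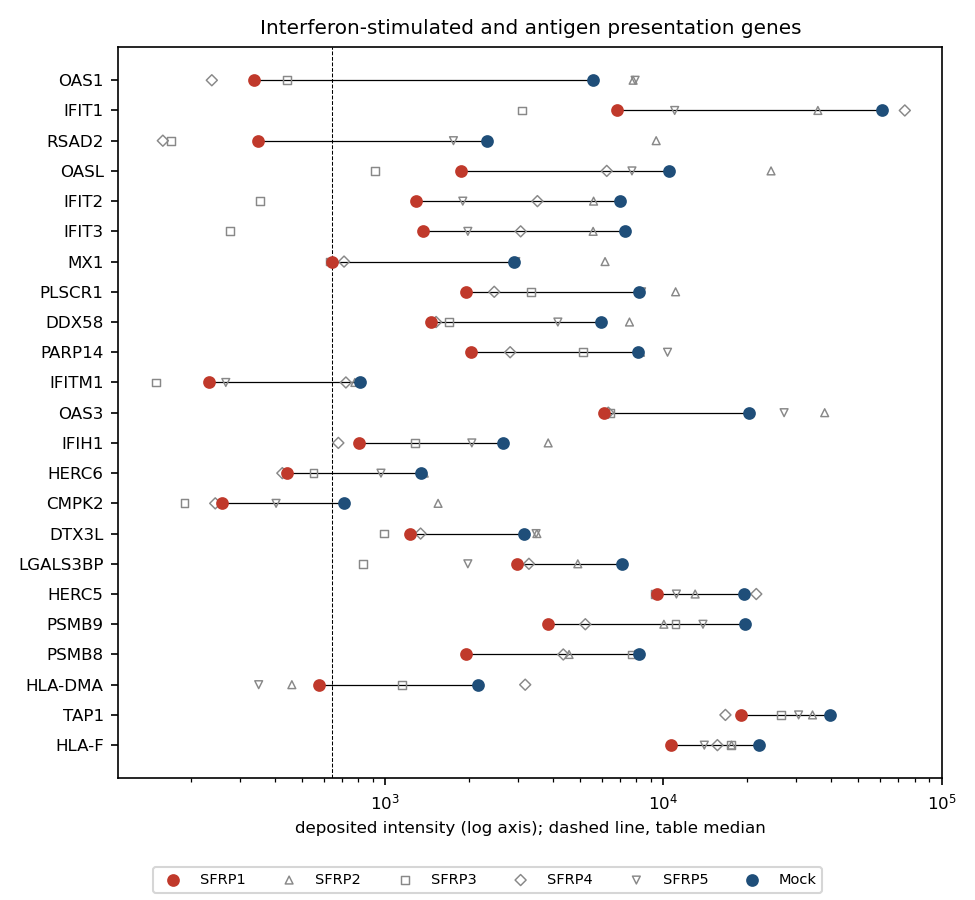
The deposited intensity on a log axis is shown for the 18 interferon-stimulated genes at least 2-fold lower in SFRP1 and for the 5 such antigen presentation genes. Red points are SFRP1 and blue points Mock, joined by a line, and open grey symbols are the 4 other clones; every red point lies left of its blue point because the genes were picked for that, while the grey symbols fall on either side.

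The other clones share the Mock array with SFRP1, so their differences are given only beside it. The median of the interferon list was 0.42 in SFRP2, -1.67 in SFRP3, -1.22 in SFRP4 and -0.40 in SFRP5.

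Among antigen presentation genes the immunoproteasome subunits PSMB9 and PSMB8 differed in the same direction as the interferon genes, while the peptide transporter subunits did so unequally. Of the 17 kept of 27 listed genes, 5 (29.4%) were at least 2-fold lower and 0 higher, against 4.33% and 4.41% of all kept genes. The median was -0.44 in SFRP1, and -0.31, -0.58, -0.46 and -0.29 in the clones SFRP2 to SFRP5. PSMB9, an inducible proteasome subunit, read 3840.5 in SFRP1 and 19713 in Mock, and its partner PSMB8 read 1953 in SFRP1 and 8198 in Mock. They differed by -2.36 and -2.07, and a further PSMB8 probe by -2.16. TAP1, a peptide transporter subunit, read 18948 in SFRP1 and 39604 in Mock (-1.06), whereas TAP2, its partner, read 5071 in SFRP1 and 5334 in Mock (-0.07). HLA-DMA, which loads peptides on class II molecules, read 576 in SFRP1 and 2153 in Mock (-1.90). B2M, the light chain of class I molecules, read 58983 in SFRP1 and 105588 in Mock (-0.84), short of 2-fold. HLA-F differed by -1.06 on its brightest probe and by -0.13 on the next. HLA-DRA and CD74, class II components, read above Mock by 0.38 and 0.38.

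Chemokines and cytokines differed in both directions. Of the 19 kept of 33 listed, 2 (10.5%) were at least 2-fold higher and 4 (21.1%) lower, against 4.41% and 4.33% of all kept genes. Their median was 0.35. Lower were CCL5, a chemokine for T cells, at 2608 in SFRP1 and 11058 in Mock (-2.08, and -2.02 on the next probe), CXCL12, the ligand of CXCR4, at 517 in SFRP1 and 2047 in Mock (-1.98), IL6 (-1.57) and CCL26 (-1.06). IL24 and CCL8 (1.38) were higher. IL8, a neutrophil chemokine, read 78646 in SFRP1, 8453, 20413, 6385 and 4036 in the clones SFRP2 to SFRP5, and 60973 in Mock. SFRP1 lay near Mock for IL8, with a difference of 0.37, and the 4 other clones lay lower. Of the NF-kappaB targets, 2 of 16 kept were at least 2-fold lower, TNFAIP2 at 2249 in SFRP1 and 11158 in Mock (-2.31) and the apoptosis inhibitor BIRC3 at 689 in SFRP1 and 1641 in Mock (-1.25), and 0 were higher. NFKBIA, the feedback inhibitor, differed by -0.62 and the adhesion molecule ICAM1 by 0.09.

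Wnt pathway genes did not share a direction. Of the 6 kept of 19 ligand genes, WNT7A alone was 2-fold apart, at 280.0 in SFRP1 and 686 in Mock (-1.29). Receptors and transducers had a median of 0.43. Of their 27 kept genes 4 (14.8%) were at least 2-fold higher and 0 lower, against 4.41% and 4.33% of all kept genes. The 4 were the receptor FZD1 at 2230.1 in SFRP1 and 938 in Mock (1.25), the co-receptor LRP5 at 765 in SFRP1 and 348 in Mock (1.13), the transducer DVL1 at 13146 in SFRP1 and 5821 in Mock (1.18) and the nuclear cofactor PYGO2 at 978 in SFRP1 and 483 in Mock (1.02). FZD6 lay below Mock without reaching 2-fold (-0.96), and CTNNB1, the gene of beta-catenin, read 64844 in SFRP1 and 62423 in Mock (0.05). Secreted and membrane antagonists had a median of -0.44 (from -0.56 to 0.03 under the other settings, so its direction flips) over 11 of 17 kept. APCDD1L and DKK1, a secreted ligand of LRP5 and LRP6 that blocks Wnt, were the 2 antagonists at least 2-fold higher. DKK1 read 679 in SFRP1, 301, 146, 426 and 2009.5 in the clones SFRP2 to SFRP5, and 94.9 in Mock, so Mock was lowest, and SFRP1 differed by 2.83.

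Of the target genes of beta-catenin, 29 of 37 were kept, with a median of 0.27. Of these, 6 (20.7%) were at least 2-fold higher and 5 (17.2%) at least 2-fold lower, against 4.41% and 4.33% of all kept genes. SP5, a zinc finger factor that is a direct target in many tissues, read 7844 in SFRP1, 1793, 3815, 1630.2 and 1217 in the clones SFRP2 to SFRP5, and 1748 in Mock. SFRP1 was the highest array and differed from Mock by 2.17. TWIST1, a mesenchymal factor, read 2304 in SFRP1 and 567 in Mock (2.02), SOX9 54768 in SFRP1 and 24398 in Mock (1.17), the nuclear receptor PPARD 3143 in SFRP1 and 1368 in Mock (1.20) and BMP4 2009 in SFRP1 and 947 in Mock (1.08). Lower were NRCAM, a neural adhesion molecule, at 2563 in SFRP1 and 25271 in Mock (-3.30), SOX4 at 567 in SFRP1 and 3087 in Mock (-2.44), the Notch ligand JAG1 at 10491 in SFRP1 and 43486 in Mock (-2.05), TNFRSF19 at 1389 in SFRP1 and 4377 in Mock (-1.66) and the R-spondin receptor LGR4 at 728 in SFRP1 and 1485 in Mock (-1.03). Several of the best known targets lay within 2-fold: MYC read 33519.8 in SFRP1 and 27366 in Mock (0.29), CCND1 (cyclin D1) 31362 in SFRP1 and 34269 in Mock (-0.13), the feedback inhibitor NKD1 4378 in SFRP1 and 3589.9 in Mock (0.29) and TCF7 1589 in SFRP1 and 1315 in Mock (0.27). LEF1 differed by -0.70 on its brightest probe and by -1.87 on the next. AXIN2 and LGR5 did not pass the filter. Wnt3a was present for both arrays, so a response to it cannot be told apart from other differences between the lines.

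Surface markers used for cancer stem cells lay on either side of Mock. Of 21 listed 12 were kept and 0 were at least 2-fold apart, too few to set against the 8.74% of all kept genes, with a median of -0.07 (from -0.19 to 0.00 under the other settings, so its direction flips). CD44, the hyaluronan receptor, read 6857 in SFRP1 and 3945 in Mock (0.80), ALCAM (CD166) 735 in SFRP1 and 1303 in Mock (-0.83) and the efflux pump ABCG2 1301 in SFRP1 and 1161 in Mock (0.16). PROM1 (CD133), CD24 and EPCAM were not kept. Of the 6 kept of 16 pluripotency and stemness factors, 3 were at least 2-fold lower: NES (nestin, an intermediate filament of progenitors) at 577 in SFRP1 and 2804 in Mock (-2.28), KLF4 at 2781 in SFRP1 and 5911 in Mock (-1.09) and HMGA2 at 4899 in SFRP1 and 10346 in Mock (-1.08, but 0.37 on the next probe). SOX2 read 158 in SFRP1 and 136 in Mock. Aldehyde dehydrogenases, whose activity is used to sort stem-like cells, had 1 of 16 kept at least 2-fold lower, ALDH3A1 at 234 in SFRP1 and 757 in Mock (-1.69). ALDH1A3 differed by -0.10 and ALDH7A1 by -0.05. Of the ABC transporters that export drugs, ABCC2 read 835 in SFRP1 and 9587 in Mock (-3.52). ABCC3 read 4271 in SFRP1 and 9250.2 in Mock (-1.11, but -0.69 with the mean of all probes). ABCB6, a porphyrin transporter, read 17517 in SFRP1, 5439, 1151, 5758 and 2211 in the clones SFRP2 to SFRP5, and 5125 in Mock. It was highest in SFRP1 (1.77).

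**Figure D3:**
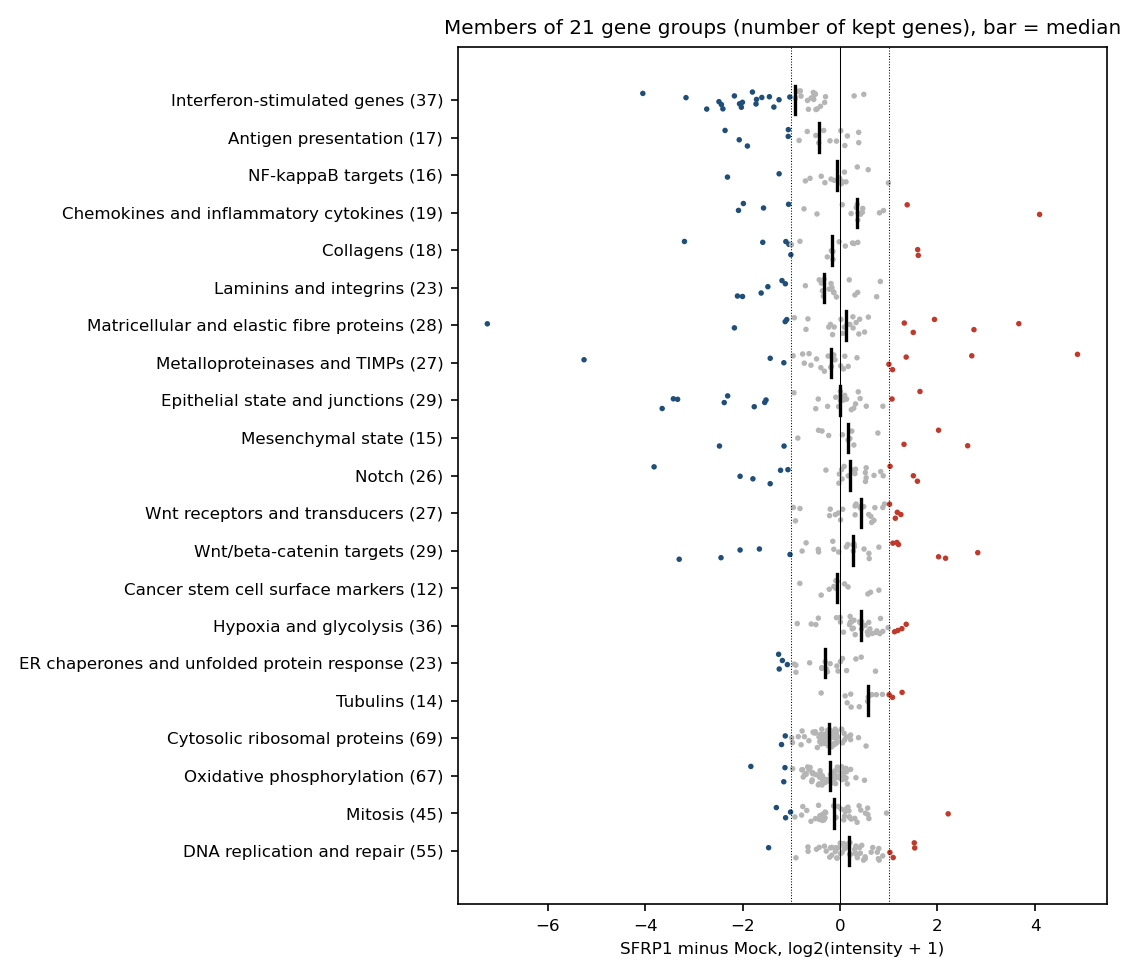
Each point is a kept member of one of 21 gene groups, with SFRP1 minus Mock in log2 units on the horizontal axis, the number of kept members in brackets and a black bar at the group's median. Red points are at least 2-fold higher in SFRP1 and blue points at least 2-fold lower; the interferon group has its median at -0.92 and tubulins at 0.57, and the cancer stem cell surface markers stay between the dotted 2-fold lines.

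Matrix and adhesion genes held many of the widest gaps, in both directions. Of the matricellular and elastic fibre proteins, 28 of 39 were kept. Of these, 5 (17.9%) were at least 2-fold higher and 4 (14.3%) at least 2-fold lower, against 4.41% and 4.33% of all kept genes. FN1 (fibronectin) read 45611 in SFRP1, 4774, 122894, 67437 and 20460.0 in the clones SFRP2 to SFRP5, and 204995 in Mock. Mock was highest, and SFRP1 differed by -2.17. LOX, which cross-links collagen and elastin, read 10606 in SFRP1, 3268, 793, 3535 and 720.5 in the clones SFRP2 to SFRP5, and 1578 in Mock. SFRP1 was the highest array, by 2.75 over Mock and 2.01 on a further probe. TGFBI, a matrix protein induced by TGF-beta, read 17287 in SFRP1 and 6101 in Mock, and CYR61 (CCN1), a YAP target, 6827 in SFRP1 and 2737 in Mock (1.32). LOXL1 (-1.13) and SPARCL1 (-1.09) were lower along with SPP1 and FN1.

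Collagen genes included 2 (11.1%) at least 2-fold higher and 5 (27.8%) lower among 18 of 31 kept, with a median of -0.16. Of all kept genes 4.41% were at least 2-fold higher and 4.33% lower. COL6A3 read 146 in SFRP1 and 1342 in Mock (-3.19), and COL4A1, a chain of basement membrane collagen, 5079 in SFRP1 and 15248 in Mock (-1.59). Its partner chain COL4A2 read 8603 in SFRP1 and 18596 in Mock (-1.11). COL18A1, the source of endostatin, was higher at 6198 in SFRP1 and 2053 in Mock (1.59). Laminins and integrins had a median of -0.33 in SFRP1, and of -0.14, -0.22, -0.55 and -0.48 in the clones SFRP2 to SFRP5. Of their 23 kept genes 0 were at least 2-fold higher in SFRP1 and 6 (26.1%) at least 2-fold lower. The lower ones included chains of the laminin of hemidesmosomes and a subunit of its receptor: LAMA3 at 1499.8 in SFRP1 and 6009.9 in Mock, LAMB3 at 39706 in SFRP1 and 86425 in Mock (-1.12, and -1.31 on the next probe) and ITGB4 at 4146 in SFRP1 and 12736 in Mock (-1.62, and -1.34 on the next). ITGA2, a collagen receptor subunit, read 2667 in SFRP1 and 11476 in Mock (-2.11, and -2.56 on the next probe), and ITGB3 differed by -1.19. ITGA6 and ITGB1 lay near Mock, at -0.22 and -0.13.

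Proteases and their inhibitors also split. Of the metalloproteinases and TIMPs 27 of 43 were kept. Of these, 5 (18.5%) were at least 2-fold higher and 3 (11.1%) lower, against 4.41% and 4.33% of all kept genes. ADAMTS12, a secreted protease of cartilage matrix protein, read 1488 in SFRP1, 64.4, 42.2, 62.9 and 42.3 in the clones SFRP2 to SFRP5, and 49.8 in Mock. Only SFRP1 stood above the floor of its array, and the difference of 4.87 becomes 4.40 when Mock is raised to its 10th percentile. ADAM12, a membrane protease, read 979 in SFRP1, 173, 124, 225 and 173 in the clones SFRP2 to SFRP5, and 149 in Mock, with SFRP1 again the one high array (2.70). ADAMTS12 and ADAM12 passed the filter on dim probes through SFRP1 alone, so their place as high in SFRP1 follows from it. TIMP2 was higher at 38788 in SFRP1 and 18382 in Mock (1.08), opposite to TIMP3, and MMP14, the membrane activator of MMP2, read 40593 in SFRP1 and 69108 in Mock (-0.77). Among 25 of 40 kept genes of the plasminogen and coagulation systems and serpins, 5 were at least 2-fold lower and 2 higher. The granzyme B inhibitor SERPINB9 read 767 in SFRP1 and 4006 in Mock (-2.38, and -2.91 on the next probe) and tissue factor (F3) 1950.1 in SFRP1 and 4908 in Mock (-1.33). SERPINA1 (alpha-1 antitrypsin) differed by -3.16 on its brightest probe and by -0.08 on the next. Of the proteoglycans, SRGN (serglycin) read 168 in SFRP1 and 1398 in Mock (-3.05) and SDC1 (syndecan 1) 12773 in SFRP1 and 27456 in Mock (-1.10), while GPC3 was higher.

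Epithelial and mesenchymal genes were mixed. Of the 29 kept of 51 epithelial and junction genes, 8 were at least 2-fold lower and 2 at least 2-fold higher, with a median of 0.01 (from -0.11 to 0.01 under the other settings, so its direction flips). KRT19, a simple epithelial keratin, read 260.4 in SFRP1, 793, 2687, 223 and 2593 in the clones SFRP2 to SFRP5, and 2634 in Mock. SFRP1 and SFRP4 were the low arrays, and SFRP1 differed from Mock by -3.33. EVPL (envoplakin) differed by -3.42, and by -3.34, -3.30, -3.06 and -3.09 in the clones SFRP2 to SFRP5. CLDN5 differed by -3.65, and by -4.01, -4.41, -3.39 and -2.07 in those clones, so every clone lay below Mock for both. The epithelial factor ELF3 differed by -2.38 and -2.18 on its next probe, CDH1 by -1.76 and KRT7 by -1.55. DSC2 (desmocollin 2, of desmosomes) was higher at 5329 in SFRP1 and 1709 in Mock (1.64). CDH2 (N-cadherin) read 5749 in SFRP1, 5687, 1384, 13678 and 8524 in the clones SFRP2 to SFRP5, and 935 in Mock. Mock was lowest, and SFRP1 differed by 2.62. The receptor kinase AXL read 23883 in SFRP1 and 9614 in Mock (1.31). TWIST1, of the same list, was higher too, as given with the beta-catenin targets. S100A4 read 28157 in SFRP1 and 156537 in Mock (-2.47), ACTA2 (smooth muscle actin) 463 in SFRP1 and 1028 in Mock (-1.15), and VIM (vimentin) 322165 in SFRP1 and 287254 in Mock (0.17). ZEB1 differed by -0.37 and SNAI1 by -0.44. Of the 15 kept of 25 mesenchymal genes, 3 were at least 2-fold higher and 2 lower.

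**Figure D4:**
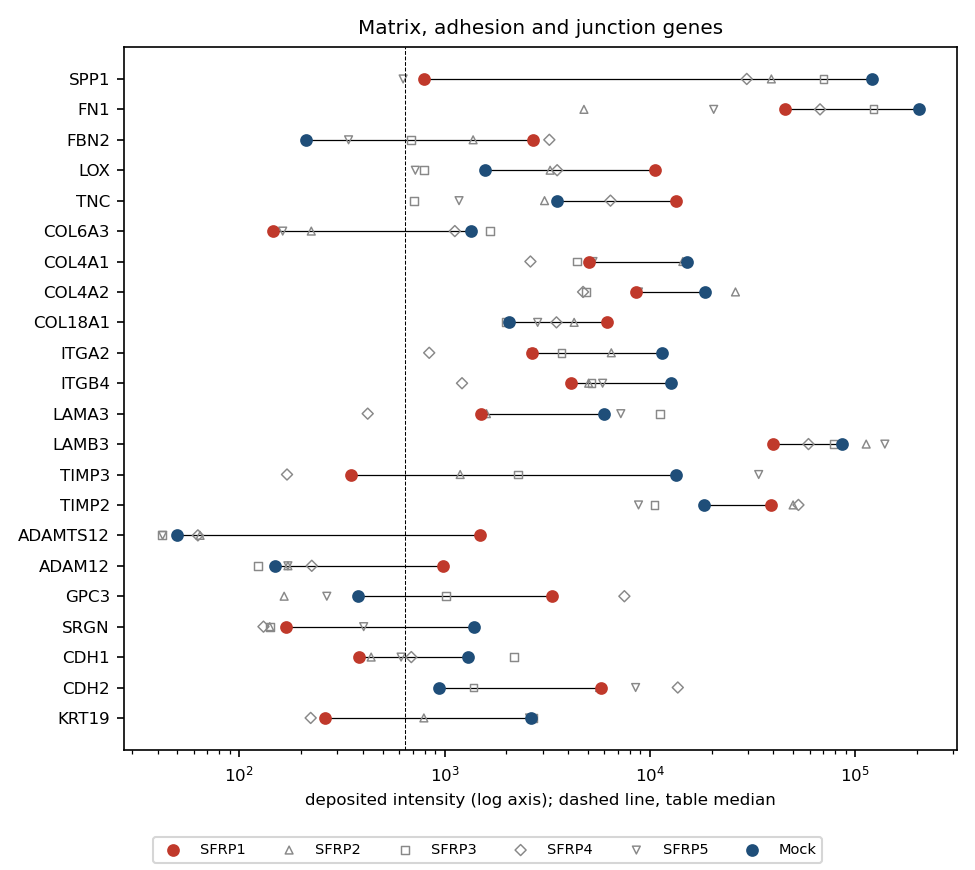
The deposited intensity on a log axis is shown for 22 matrix, adhesion and junction genes, with SFRP1 in red, Mock in blue and the 4 other clones as open grey symbols; the dashed line is the table median of 641.8. SPP1 reads 797 in SFRP1 and 120483 in Mock, and for ADAMTS12 and ADAM12 the red point stands alone at the right. ADAMTS12 and ADAM12 passed the filter through SFRP1 alone.

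Lineage and secretory genes were next. IRX5 and IRX2 (-1.29) were lower, and FOXA2, a factor of foregut endoderm, read 17783 in SFRP1 and 41952 in Mock (-1.24). GATA6, of the same endoderm programme, was higher at 367 in SFRP1 and 159.8 in Mock (1.20). NKX2-1, the lung lineage factor, read 491 in SFRP1 and 405 in Mock, under the table median on both arrays. AGR2 and the trefoil factor TFF3 at 272 in SFRP1 and 1278 in Mock (-2.23) were the 2 of 15 kept airway and alveolar genes at least 2-fold lower. The lipoprotein gene APOE read 1652 in SFRP1 and 4475 in Mock (-1.44), and CES1, a liver-type carboxylesterase, 154 in SFRP1 and 663 in Mock (-2.10). S100P read 213 in SFRP1 and 1964 in Mock (-3.20). ANXA1 (annexin A1) read 20845 in SFRP1, 1892, 1108, 534 and 743 in the clones SFRP2 to SFRP5, and 10136 in Mock, so SFRP1 was above Mock by 1.04 and the 4 other clones lay below it. H19, an imprinted noncoding RNA, read 11483 in SFRP1 and 54917 in Mock (-2.26, and -2.30 on the next probe). Cancer-testis antigens had 0 of 9 kept genes 2-fold apart, and PRAME read 25448 in SFRP1 and 31794 in Mock. Of 25 kept HOX genes 3 were at least 2-fold higher, HOXA13 (1.46), HOXB2 (1.39) and HOXA3 (1.16), and HOXC8 was lower (-1.03).

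Growth factor families held genes in both directions. In the EGF family NRG1 (neuregulin 1, a ligand of ERBB3 and ERBB4) read 721 in SFRP1 and 4684 in Mock (-2.70, and -2.62 on the next probe), and its receptor ERBB4 read 1093 in SFRP1 and 313 in Mock (1.80). EGFR differed by 0.75, and by 1.13 on its next probe. FGF1 was lower at 825 in SFRP1 and 4845 in Mock (-2.55, and -2.54 on the next probe), while the receptor FGFR2 was higher at 1579 in SFRP1 and 559 in Mock, and by 1.51 on its next probe. ANGPT2, an angiopoietin, read 8029 in SFRP1 and 2066 in Mock (1.96). In the IGF axis the binding protein IGFBP3 read 14491 in SFRP1 and 3664 in Mock (1.98, and 2.13 on the next probe). The docking proteins of the insulin and IGF receptors split: IRS2 read 1417 in SFRP1 and 4775 in Mock (-1.75) and IRS1 5309 in SFRP1 and 2072 in Mock (1.36). Of 37 kept TGF-beta and BMP genes 3 (8.11%) were at least 2-fold higher, BMP5 (2.53), BMP4 and TGFB1 (1.01). A further 3 (8.11%) were lower, the BMP target ID3 at 4422 in SFRP1 and 15222 in Mock (-1.78), BMP7 (-1.75) and GDF15 (-1.31). Of all kept genes 4.41% were higher and 4.33% lower.

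Notch genes had 6 of 26 kept members (23.1%) at least 2-fold lower and 3 (11.5%) higher, against 4.33% and 4.41% of all kept genes. Their median was 0.21. The hairy-related repressors, which are direct Notch targets, split. HEY1 read 2035 in SFRP1, 3108, 8192, 6194 and 8658 in the clones SFRP2 to SFRP5, and 28686 in Mock, and all 5 clones lay below Mock (-3.82 in SFRP1). HES1 read 9462 in SFRP1 and 3146 in Mock (1.59) and HES4 37281 in SFRP1 and 13133 in Mock (1.51). NUMB, an inhibitor of Notch, read 10252 in SFRP1 and 23900.4 in Mock (-1.22, and -1.30 on the next probe). Of 25 kept YAP and TAZ genes 4 were at least 2-fold higher, CYR61, AXL, IGFBP3 and FJX1 (1.06), and 2 lower, FOXF2 (-1.72) and F3. Axon guidance genes had SEMA3C, a secreted semaphorin, at 156 in SFRP1, 248 to 785 in the 4 other clones and 2026 in Mock (-3.69). The semaphorin receptor PLXND1 read 3705 in SFRP1 and 26754 in Mock (-2.85). NTN1 (netrin 1) differed by 1.84 on its brightest probe and by -0.06 on the next. DUSP4, a phosphatase that restrains ERK, read 10033 in SFRP1 and 45238 in Mock (-2.17, and -1.96 on the next probe), and the immediate early factor EGR1 6187 in SFRP1 and 18128 in Mock (-1.55).

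Stress and metabolism groups had medians from -0.31 to 0.43. Hypoxia and glycolysis genes had 4 of 36 kept members (11.1%) at least 2-fold higher and 0 lower, against 4.41% and 4.33% of all kept genes. Above 0 were 31 of the 36, against 6469 of all 11954, and the median was 0.43. In the clones SFRP2 to SFRP5 the median was 0.05, 0.05, 0.12 and -0.72. The 4 were PFKFB4 and PFKFB3, which set the level of the glycolytic activator fructose 2,6-bisphosphate, at 30611 in SFRP1 and 11944 in Mock (1.36) and 20502 in SFRP1 and 9009 in Mock (1.19), the lactate exporter SLC16A3 at 3886 in SFRP1 and 1612 in Mock (1.27) and the peptide hormone ADM (1.12). PGK1, a glycolytic enzyme, differed by -0.59 and GAPDH by 0.07. Chaperones of the endoplasmic reticulum and the unfolded protein response had a median of -0.31. Of 23 kept, 4 (17.4%) were at least 2-fold lower and 0 higher, against 4.33% and 4.41% of all kept genes. They included HERPUD1 at 25416 in SFRP1 and 60898 in Mock (-1.26) and DNAJC3 (-1.25). The others were the factor XBP1 at 4822 in SFRP1 and 10953 in Mock (-1.18) and DERL3 (-1.08, but -0.47 with the mean of all probes). The main chaperone HSPA5 (BiP) differed by -0.38. Of the amino acid stress genes under ATF4, NUPR1 read 7267 in SFRP1 and 29176 in Mock (-2.01), and the list had a median of 0.00. Of the NRF2 and glutathione genes, the glutathione synthesis subunits split, GCLM at 3031 in SFRP1 and 11007 in Mock (-1.86) and GCLC at 2332 in SFRP1 and 1071 in Mock (1.12). AKR1B10 read 223 in SFRP1 and 934 in Mock (-2.06). Cholesterol and fatty acid synthesis had 1 of 30 kept genes 2-fold apart, TM7SF2 (-1.47). FKBP5, a chaperone induced by glucocorticoids, read 1591 in SFRP1, 4178, 4789, 14226 and 7782 in the clones SFRP2 to SFRP5, and 4023 in Mock, so SFRP1 was lowest (-1.34).

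Cell cycle genes were 2-fold apart about as often as all kept genes, of which 8.74% were. Of 45 kept mitosis genes 1 was at least 2-fold higher, PTTG1 (securin) at 1758 in SFRP1 and 377 in Mock (2.22), and 3 were lower, HMMR (-1.31), KIF11 (-1.12) and KIF20B (-1.02). Of 55 kept replication and repair genes 4 were at least 2-fold higher, POLE (1.53), ORC1 (1.52), E2F2 (1.09) and MCM2 (1.02), and RAD51AP1 was lower (-1.47). The p53 targets had GDF15 alone 2-fold apart among 31 kept, with CDKN1A (p21) at 0.78 and MDM2 at -0.86.

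Cytosolic ribosomal protein genes had a median of -0.22 with 59 of 69 below 0, mitochondrial ones -0.15 with 52 of 71, and oxidative phosphorylation -0.20 with 52 of 67. These are bright genes, and the brightest quintile of all genes had a median of -0.06. Tubulins had 13 of 14 above 0 and a median of 0.57, and 3 (21.4%) were at least 2-fold higher, against 4.41% of all kept genes. TUBA1A read 69405 in SFRP1 and 28704 in Mock (1.27), TUBB3, the neuronal isotype, 22115 in SFRP1 and 10489.8 in Mock (1.08) and TUBA4A 1990.2 in SFRP1 and 989.6 in Mock (1.01). Protocadherins had 5 of 23 (21.7%) at least 2-fold higher and 1 (4.35%) lower, against 4.41% and 4.33% of all kept genes. The widest gaps were those of PCDHGA12 (2.24) and PCDH20 (2.20). Olfactory receptors, which serve here as genes with little known role in lung cells, had 8 of 93 at least 2-fold higher, 3 lower and a median of 0.23, and the dimmest quintile of all genes had 0.15.

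Whether SFRP1 or Mock stood apart was read from all 6 arrays. Of the 1045 genes at least 2-fold apart, SFRP1 alone lay at least 2-fold beyond all 5 other arrays for 90 (8.61%), 43 above them (0.36% of all kept genes) and 47 below (0.393%). Mock alone did so for 87 (8.33%), 45 above (0.376%) and 42 below (0.351%), with 3 genes in both sets. For the other 871 neither array was alone. The same count for the other clones ran from 23 above and 27 below in SFRP2 to 164 above and 270 below in SFRP4.

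The genes in which SFRP1 alone stood highest included ADAMTS12 and ADAM12. CACNG4, a calcium channel and AMPA receptor subunit, read 833 in SFRP1, 95.4 to 186 in the 4 other clones and 113 in Mock (2.87). BEND5, a BEN domain factor, read 921 in SFRP1, 182 to 267 in the 4 other clones and 158 in Mock (2.54). CTNNBIP1 (ICAT), which blocks the binding of beta-catenin to TCF factors, read 3507 in SFRP1, 1142, 1009, 918 and 1038 in the clones SFRP2 to SFRP5, and 1082 in Mock. It differed from Mock by 1.70, the other 5 arrays lay close together, and it was picked out after its values were seen, as was TLE4 below.

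SFRP1 alone was lowest for a second set. GNAI1, an inhibitory G protein subunit, read 99.9 in SFRP1, 547 to 1302 in the 4 other clones and 948 in Mock (-3.23), with the SFRP1 reading near its 10th percentile of 91.0. LDOC1, an X-linked regulator gene of retrotransposon origin, read 1263 in SFRP1, 5914 to 14866 in the 4 other clones and 7339.6 in Mock (-2.54, and -1.75 on the next probe). TMEM156, a membrane protein, read 759.7 in SFRP1, 2954 to 7145 in the 4 other clones and 4976 in Mock (-2.71). NR2F2 (COUP-TFII, an orphan nuclear receptor) read 98.9 in SFRP1 and 374 in Mock (-1.91), and the 4 other clones lay above Mock. The SFRP1 reading of NR2F2 was also near the 10th percentile. NR2F2 passed the filter only through SFRP4 at 1554 and SFRP5 at 914. TLE4, a Groucho co-repressor that acts with TCF factors, read 91.0 in SFRP1, 877, 356, 998 and 659.7 in the clones SFRP2 to SFRP5, and 280.1 in Mock, so SFRP1 was lowest and at its 10th percentile.

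Some of the largest numerical gaps came from probes that switch between a bright reading and the floor of an array. SFRP1 lay under its 10th percentile with Mock at or above the table median for 5 genes, DET1, EID2, RASSF1, SLFN12 and TMEM235. The reverse held for 8, ADAMTS12, CCNB1IP1, MIS18A, NELL2, NHS, PPAT, STUB1 and TSEN54. NELL2 and NHS did not switch but held levels in between. In the clones SFRP2 to SFRP5 NELL2 read 149, 193, 603 and 244, and NHS 1110, 113, 184 and 446. EID2 read 47.0 in SFRP1, 24.7, 5993, 5585 and 30.4 in the clones SFRP2 to SFRP5, and 4529.7 in Mock, and CCNB1IP1 read 26926 in SFRP1, 40149, 15.6, 4.1 and 19.5 in the clones SFRP2 to SFRP5, and 39.5 in Mock, so each alternated among arrays with no value in between. DET1 was at the floor in SFRP1 alone, at 46.0 in SFRP1, 764 to 1342 in the 4 other clones and 1152 in Mock, and MIS18A and TSEN54 in Mock alone. PPAT read 2501 in SFRP1 and 1.4 to 34.8 on the other 5 arrays. Their size follows from where the floor is set: at the 10th percentile the difference of DET1 is -3.65 and that of CCNB1IP1 8.58.

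Differences were also laid out by chromosome, a layout chosen after the values were seen. Through RefSeq (GRCh38.p14) 11910 kept genes had a chromosome, and the build of the array is not given, so only chromosomes and the order of neighbours are used. Chromosome 13 had the lowest median, -0.53 over its 199 genes, of which 152 (76.4%) lay below 0 against 45.9% of all kept genes. At least 2-fold lower were 29 (14.6%) and at least 2-fold higher 8 (4.02%), against 4.33% and 4.41% of all kept genes. In the other clones the median of chromosome 13 was 0.21 in SFRP2, 0.16 in SFRP3, 0.10 in SFRP4 and -0.36 in SFRP5. Chromosome 22 followed at -0.28 over 282 genes, with 27 (9.57%) at least 2-fold lower and 3 higher, and it lay at -0.62 in SFRP2, -0.19 in SFRP3, -0.09 in SFRP4 and -0.27 in SFRP5. The lowest of the remaining chromosomes was 16 at -0.18, with 0.14 in SFRP2, 0.09 in SFRP3, 0.06 in SFRP4 and 0.12 in SFRP5. Against the mean of the 4 other clones the median of SFRP1 was -0.42 on chromosome 13 and -0.25 on 16. It was -0.23 on chromosome 12 and -0.06 on 22, where every clone lay below Mock. The highest median was 0.23, on chromosome 17, where 56 of 742 genes (7.55%) were at least 2-fold higher, against 4.41% of all kept genes. Under the 6 alternatives tried the median of chromosome 13 lay between -0.65 and -0.52 and that of chromosome 22 between -0.44 and -0.20.

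**Figure D5:**
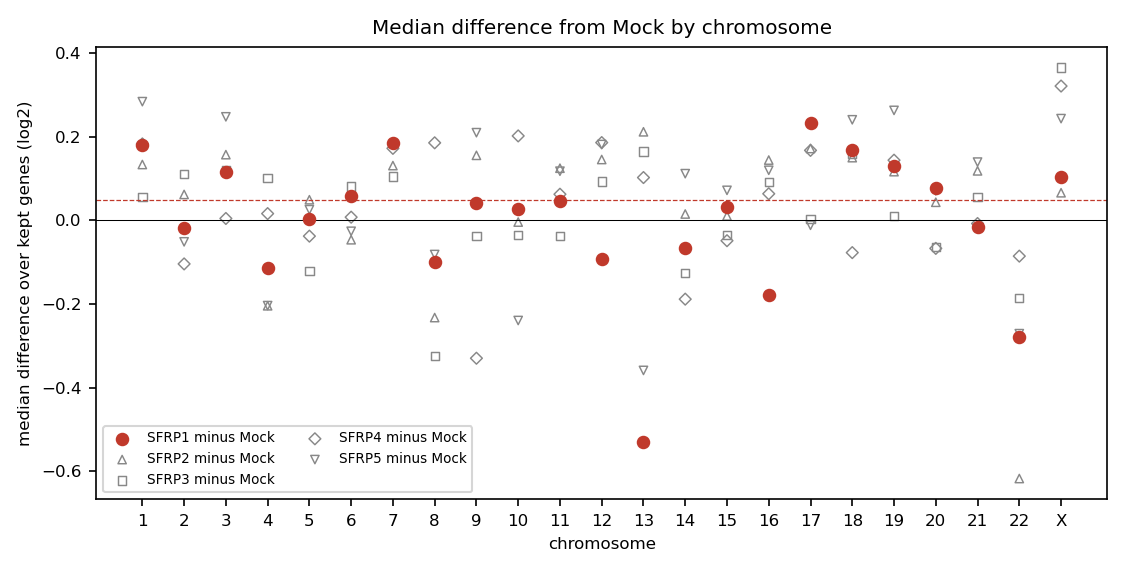
The median log2 difference from Mock over kept genes is shown for chromosomes 1 to 22 and X, with SFRP1 as red points and the 4 other clones as open grey symbols. The dashed line is the SFRP1 median of 0.05 over all genes; SFRP1 lies lowest at chromosome 13, at -0.53.

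Windows of 25 neighbouring kept genes give the medians along the chromosomes. Of 466 windows 17 had a median at or below -0.5 and 5 at or above 0.5. Chromosome 13 held 4 of the 17 among its 7 windows, and chromosome 22 held 3 among its 11. The lowest window ran from ABCC4 to TNFSF13B on chromosome 13 with a median of -0.78 and 23 of 25 genes below 0, and its median was 0.05 in SFRP2, 0.07 in SFRP3, 0.16 in SFRP4 and -0.46 in SFRP5. IRS2, COL4A1 and COL4A2 are neighbours on chromosome 13, and RB1, the retinoblastoma gene on the same chromosome, read 2601 in SFRP1 and 4024 in Mock (-0.63). TNFSF13B, the end of the lowest window, was one of the exceptions at 584 in SFRP1 and 196 in Mock (1.57).

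Neighbours among kept genes that were each at least 2-fold apart in the same direction formed 14 runs of 3 or more, 12 lower and 2 higher. They included IFIT2, IFIT3 and IFIT1 on chromosome 10, and PSMB8, TAP1, PSMB9 and HLA-DMA on chromosome 6. LAMB3, G0S2 and HSD11B1 formed one on chromosome 1, where G0S2, an inhibitor of the lipase ATGL, read 3933 in SFRP1 and 21219 in Mock (-2.43). NETO2, ITFG1 and PHKB formed another on chromosome 16, at -2.84, -1.54 and -1.55. TNFSF9, CD70 and the complement gene C3 lay together on chromosome 19, where CD70, the ligand of CD27, read 212 in SFRP1 and 1359.9 in Mock (-2.67) and C3 193 in SFRP1 and 899 in Mock (-2.22). One of the 2 higher runs was CACNG4, CACNG1 and HELZ on chromosome 17, with CACNG1 at 1.84 and HELZ at 1.13.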

How the data were processed

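Per the labels' protocols, Trizol RNA of both populations passed an integrity check, went through an amino allyl amplification and carried a single dye, Cy5. The authors deposited linear intensity values for 31741 probes on 6 arrays. Scanner, background correction and scaling: not given in the sources used here. Below an intensity of 2000, where this was tested, the deposited values of each array are whole numbers (within 0.05) times 1 factor, 0.979 for SFRP1 and 0.940 for Mock, with array medians of 652.0 for SFRP1 and 599.6 for Mock. Signal over background per spot was not used here. GEO's labels do not say whether these are separate cultures.

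The values were kept as scaled, set to at least 0, increased by a pseudocount of 1 and put on the log2 scale (Python 3.11.15, pandas 2.3.3, numpy 2.4.6). Of the probes 24740 had 1 symbol in the platform annotation, 977 several and 6024 none, and those with 1 were used. The brightest probe by mean was taken for the 5441 of 18365 symbols with several. Genes were kept when the highest of the 6 arrays reached the table median (intensity 641.8, log2 9.33), which left 11954, of which 11184 would pass on SFRP1 or Mock alone. A gene that passed only where it is high had to differ, so counts over kept genes are descriptions. With 1 array a group there is no test and no p-value, and 2-fold marks size only.

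The comparison, the 54 lists and the 20 symbol families were chosen with earlier results of these data known. The text names, after leaving aside probes at the floor on a single array, genes among the 25 highest and 25 lowest, the SFRP family, up to 8 members of each list with the widest gaps and others shown as near Mock, up to 4 of each family and the 5 farthest beyond all other arrays in each direction. Names outside this rule were chosen after their values were seen: DDX58, IFIH1, OAS3, PARP14, LGR4 and SPARCL1 within lists, CTNNBIP1, TLE4 and C3 among the arrays' extremes, and G0S2, NETO2, ITFG1, PHKB, CD70, CACNG1 and HELZ as neighbours of other genes. Alternatives were quantile normalization, median centring, a pseudocount of 16, values raised to the 10th percentile, other filters, the mean of all probes, and leaving single-array floor probes out. Chromosomes, neighbour order and promoters came from RefSeq tables (GRCh38.p14).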

Additional observations from a re-analysis of the deposited data

How the results depend on the processing

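With 1 array a group no array can be left out. No paired analysis was possible because every title carries replicate number 1 and each group has a single array. Without the filter on dim genes 898 genes were at least 2-fold higher and 588 lower of 18365, and the added genes are dim by construction. The other settings gave 381 to 525 genes higher and 404 to 699 lower, except that raising values to the 10th percentile kept 527 and 518. The low end of both came from the filter on the mean of 6 arrays (381 and 404 of 10808). Median centring gave 398 higher and 699 lower, a share of 36.3% higher against 50.4% with the deposited scaling, and quantile normalization 457 and 554. Leaving out genes with SFRP1 or Mock under its 10th percentile, chosen after seeing the data, gave 518 and 513. Of 274 named genes 2-fold apart 0 changed direction under the settings that alter values, and 41 fell short of 2-fold in at least 1 (22 with the mean of all probes, 19 with median centring). The median changed sign for 23 of 74 lists and families, none with a median beyond 0.44 in size, so small medians carry no direction. Dim probes limit the size of the widest gaps.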
